A study of Mus musculus with 5 samples.

Results

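The sirtuins are the NAD-dependent deacylases of class III, the branch of the deacetylase family that shares no catalytic domain with HDAC1. The genes *Sirt1* to *Sirt7* were taken by name, and all 7 were present among the 23361 gene symbols measured. RNA-seq had been run on hippocampal tissue of male mice at 3 months of age. The 2 control mice carried the floxed allele alone (Hdac1f/f). The 3 *Hdac1* cKO mice carried the same floxed allele with a *Nestin-Cre* transgene (Hdac1f/f, Nestin-Cre). *Nestin-Cre* recombines in neural progenitors, so per the study the gene is lost from neurons and astrocytes while microglia keep HDAC1. The controls carried no Cre, so the deletion and the transgene cannot be told apart here. Transcript levels of the NAD-dependent enzymes were compared between mice with and without the zinc-dependent *Hdac1* in these cells.

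Sirtuins transfer an acyl group from a lysine side chain to NAD and release nicotinamide, so their activity follows the supply of NAD and not their transcript level alone. The enzymes SIRT1, SIRT6 and SIRT7 work mainly in the nucleus, SIRT2 mainly in the cytoplasm, and SIRT3, SIRT4 and SIRT5 in mitochondria. In the brain SIRT2 is known as an abundant enzyme of myelinating oligodendrocytes that deacetylates tubulin, and SIRT1 as a deacetylase of transcription factors with roles in memory and neuroprotection. SIRT3 is the main mitochondrial deacetylase, SIRT5 removes succinyl and malonyl groups, and SIRT6 and SIRT7 act on chromatin and ribosomal genes.

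The members are one family by their catalytic core, and the stretch shown here codes for the glycine-rich motif that contacts NAD. It is printed below for every member from the GENCODE vM1 transcripts, 5′ to 3′, and each base was checked against the mm9 genome. Capitals mark the 6 of 15 codons that encode the same residue in all 7 members. The stretch was found with a residue pattern that fixes these 6 positions and narrows some others. Their identity thus follows from the search, also in the counts for pairs of members below.

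Sirt1: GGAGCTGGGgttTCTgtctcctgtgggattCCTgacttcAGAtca
Sirt2: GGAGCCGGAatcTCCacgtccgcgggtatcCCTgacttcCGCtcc
Sirt3: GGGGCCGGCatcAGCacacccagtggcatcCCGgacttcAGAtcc
Sirt4: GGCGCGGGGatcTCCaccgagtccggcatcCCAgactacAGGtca
Sirt5: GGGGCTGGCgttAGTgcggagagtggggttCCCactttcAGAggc
Sirt6: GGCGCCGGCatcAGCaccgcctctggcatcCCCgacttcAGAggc
Sirt7: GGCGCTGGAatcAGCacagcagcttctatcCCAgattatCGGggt

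The 5 stretches of *Sirt1* (chromosome 10, 62794610 to 62798392, minus strand, exons 3 and 4), *Sirt2* (chromosome 7, 29561900 to 29562040, plus strand, exons 5 and 6), *Sirt3* (chromosome 7, 148063778 to 148063896, minus strand, exons 2 and 3), *Sirt6* (chromosome 10, 81088640 to 81089275, minus strand, exons 2 and 3) and *Sirt7* (chromosome 11, 120483499 to 120485821, minus strand, exons 3 and 4) cross a splice junction. Those of *Sirt4* (chromosome 5, 115932902 to 115932946, minus strand) and *Sirt5* (chromosome 13, 43467257 to 43467301, plus strand) lie within exon 2. Over the 45 bases *Sirt3* and *Sirt6* were the most alike, with 37 identical bases, and *Sirt1* and *Sirt7* the least, with 18. In residues *Sirt5* and *Sirt7* were the least alike, sharing 7 of 15. In *Sirt3* the motif starts at codon 3 of the annotated coding sequence, against codon 52 to 253 in the other members, so the vM1 model of *Sirt3* begins just before the core. The longest run shared by the coding transcripts of any pair of members was 14 bases, between *Sirt3* and *Sirt4* and between *Sirt3* and *Sirt6*. No pair of members thus shared a long stretch of transcript.

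*Sirt3* did share sequence with other genes. Of its 1637 stretches of 40 bases 135 (8.25%) also occurred in coding transcripts of *Psmd13* or *Ric8*, which overlap its ends on the opposite strand, and the other 6 members shared none. In exonic sequence, *Sirt3* overlapped *Psmd13* over 152 and *Ric8* over 61 of its 1570 nt. Small overlaps were present for *Sirt1* with *Gm16145* (65 of 5331 nt, opposite strand), *Sirt2* with *Nfkbib* (42 of 3568 nt, opposite strand) and *Sirt7* with *Mafg* (124 of 5148 nt, same strand). Whether the quantification used the strand was not given in the sources used here, so reads in these stretches cannot be assigned with certainty.

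The labels were checked with the deleted gene. *Hdac1* was at 8.95 and 13.1 FPKM in control mice, against 1.95, 3.12 and 3.37 FPKM in *Hdac1* cKO, which left 25.5% of the control mean. FPKM divides the fragments of a gene by its transcript length and by library depth, so levels of different genes can be compared. The libraries held an estimated 5140000 to 6770000 fragments, the fewest in cKO 2. They fell into a pair of sets that cross the genotypes, recognised by shared steps in their lowest values and called library sets here. The labels name no batch, so what these sets stand for is not known. Set 1 held control 1 and cKO 1, and set 2 held control 2, cKO 2 and cKO 3. Differences within each set are given beside the pooled ones for the sirtuins and most other genes described. The 10 fixed markers of hippocampal neurons were present in every library, with the lowest mean at 4.01 FPKM (*Dsp*), as were the 15 neuron, 15 astrocyte, 15 oligodendrocyte and 15 microglia markers.

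The sirtuins spanned a wide range of levels, and the mitochondrial *Sirt3* was the highest of them in every library. Its mean over the 5 libraries was 60.7 ± 2.90 FPKM (SD), above 88.7% to 89.8% of the 12740 genes tested. *Sirt2* followed with 34.1 ± 1.34 FPKM, above 79.6% to 82.1% of genes. *Sirt7* (10.1 ± 0.707 FPKM), *Sirt5* (7.19 ± 0.795 FPKM) and *Sirt1* (4.52 ± 0.587 FPKM) came next. *Sirt6* (3.63 ± 0.543 FPKM) and *Sirt4* (3.62 ± 0.475 FPKM) were lowest, at or above 15.9% of genes in each library. The ranges of neighbours in this order did not overlap from *Sirt3* down to *Sirt1*. *Sirt1* and *Sirt6* overlapped, although *Sirt1* was the higher in 5 of 5 libraries. *Sirt6* and *Sirt4* could not be ordered, since *Sirt6* was the higher in 2 of 5 libraries, both of them controls.

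**Figure D1:**
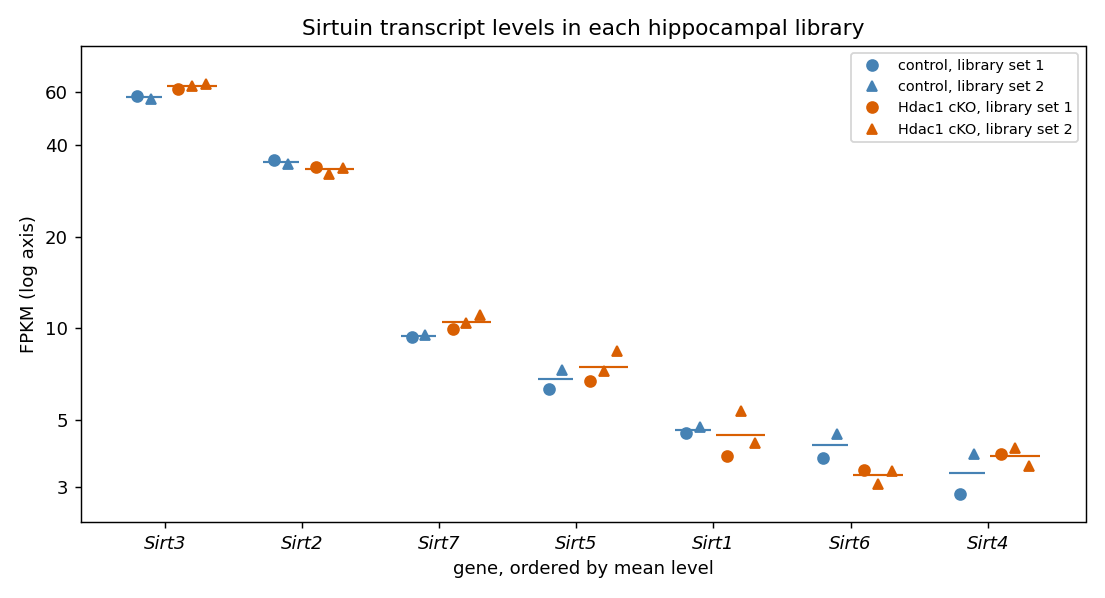
FPKM of each sirtuin gene in each of the 5 libraries on a log axis, with genes ordered by mean level, colour for genotype, symbol shape for the library set, and short lines at the group means. *Sirt3* and *Sirt2* stand apart from the other members in every library, while *Sirt1*, *Sirt6* and *Sirt4* lie close together at the low end.

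Together the 7 genes summed to 121 and 122 FPKM in the controls and to 123, 125 and 128 FPKM in *Hdac1* cKO. *Sirt3* alone made up 46.9% to 50.1% of that sum in a library, and *Sirt2* 25.8% to 29.7%. The estimated depth puts 472 to 608 fragments behind each *Sirt3* value and 306 to 443 behind each *Sirt2* value. For *Sirt6* and *Sirt4* it puts only 30 to 56 and 34 to 47 fragments, so the counting error alone is sizeable there. These fragment numbers use the longest coding transcript and are approximate.

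Between genotypes, no sirtuin gene passed the test. With limma on log2(FPKM + 1) over all genes, 0 of 7 members passed an adjusted p of 0.05, a rule met by 0.00785% of genes tested. The deleted *Hdac1* did not pass this rule either (log2 fold change −1.66, adjusted p = 0.219 in limma). Missing it thus does not show an unchanged transcript. The study's own thresholds are a fold change of at least 1.5 with an unadjusted p under 0.05. Here they were put on the limma results for log2(FPKM + 1), so the genes called need not be those the study called. This rule was met by 0 of 7 members, against 0.659% of genes, and by *Hdac1*. An unadjusted p under 0.05 was reached by 0 of 7 members, against 4.36% of genes. The log2 fold changes ran from −0.25 (*Sirt6*) to 0.15 (*Sirt4*), with 4 members higher and 3 lower and a median of 0.12, beside 0.01 over all tested genes. The 95% intervals of all 7 stayed inside a change of 1.5-fold, which is 0.585 on that scale. That scale understates changes of low genes, and with a pseudocount of 0.1 the intervals of *Sirt4* (up to 0.625) and *Sirt6* (down to −0.699) reached past it. The interval of *Sirt6* also did so with libraries rescaled to a common total (−0.707), and those of *Sirt4*, *Sirt5* or *Sirt6* when single libraries were left out.

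The differences were small but the groups often lay apart. The control and cKO libraries did not overlap in 4 of 7 members (57.1%), against 20.4% of all genes tested. Of these, *Sirt3* and *Sirt7* were higher in every cKO library (11.0% of all genes were) and *Sirt2* and *Sirt6* lower in every cKO library (9.41% of all genes). Overlap was read on the deposited FPKM only. The FPKM of all genes summed to 636705 in cKO 1, against 565363 to 586283 in the other libraries. With a common total the log2 fold changes were 0.0527 (*Sirt3*), 0.0799 (*Sirt7*), −0.147 (*Sirt2*) and −0.333 (*Sirt6*). Overlap was not examined on that scale. With 7 genes the difference from the background was not tested.

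**Figure D2:**
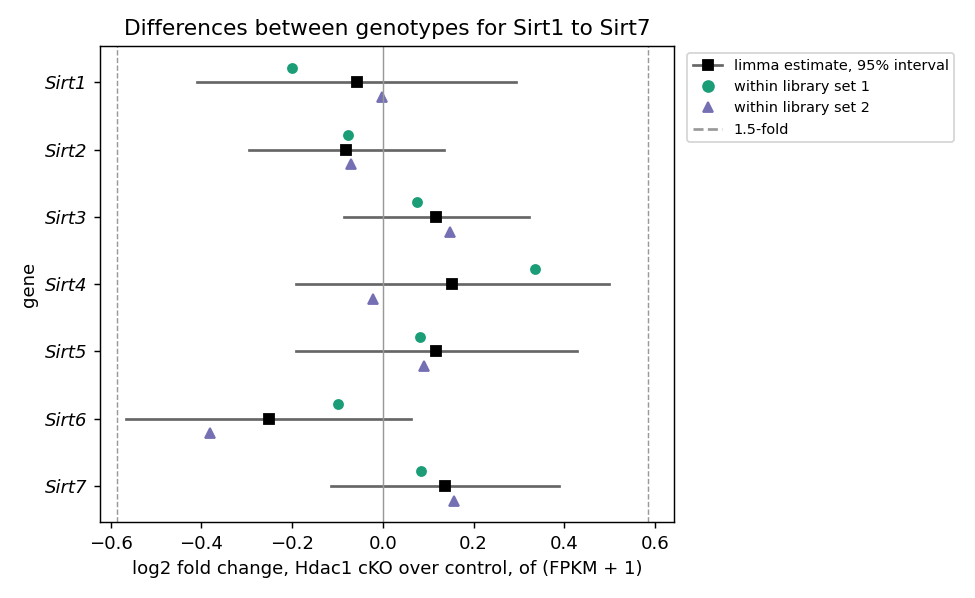
Log2 fold change of FPKM + 1, *Hdac1* cKO over control, for the 7 sirtuin genes: squares are limma estimates with 95% intervals over 2 control and 3 cKO libraries, circles and triangles the differences within library sets 1 and 2, and dashed lines a change of 1.5-fold. All intervals include 0 and end inside the dashed lines, with *Sirt6* (−0.25) farthest from 0.

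Among the nuclear members stands *Sirt6*, whose difference was the largest of the family with all 5 libraries. This gene encodes a deacylase of histone H3 that works in telomere maintenance, DNA repair and the control of glycolytic genes. It was at 3.75 and 4.50 FPKM in control mice, against 3.43, 3.08 and 3.38 FPKM in *Hdac1* cKO, so every cKO library lay below both controls. The cKO mean was 79.9% of the control mean, with a log2 fold change of −0.25 (95% interval −0.565 to 0.0625, adjusted p = 0.955 in limma). Within the sets the difference was −0.10 and −0.38. Control 2 was the highest library, and without it the log2 fold change was −0.145, smaller in size than those of *Sirt4* (0.321), *Sirt5* (0.21) and *Sirt7* (0.151).

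*Sirt7* encodes a deacetylase of the nucleolus that acts with RNA polymerase I. It was at 9.34 and 9.54 FPKM in control mice, against 9.96, 10.4 and 11.1 FPKM in *Hdac1* cKO, a mean higher by 11.1% with no overlap. The log2 fold change was 0.14 (95% interval −0.114 to 0.389, adjusted p = 0.955 in limma), and it was 0.08 and 0.16 within the sets. *Sirt1*, the deacetylase of p53, FOXO proteins and PGC-1α, was at 4.51 and 4.74 FPKM in control mice, against 3.80, 5.36 and 4.18 FPKM in *Hdac1* cKO. The cKO libraries lay on both sides of the controls, and the log2 fold change of −0.06 (95% interval −0.409 to 0.294, adjusted p = 0.989 in limma) was well inside their spread. It was −0.20 in set 1 and −0.0014 in set 2.

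The mitochondrial members were all higher on average in *Hdac1* cKO, none of them past the test. *Sirt3* was at 58.3 and 57.0 FPKM in control mice, against 61.5, 62.8 and 63.8 FPKM in *Hdac1* cKO. The groups did not overlap, although the mean was higher by only 8.68%, with a log2 fold change of 0.12 (95% interval −0.0863 to 0.322, adjusted p = 0.955 in limma) and of 0.07 and 0.15 within the sets. *Sirt5*, which encodes the desuccinylase, was at 6.29 and 7.28 FPKM in control mice, against 6.71, 7.26 and 8.41 FPKM in *Hdac1* cKO (log2 fold change 0.12, 95% interval −0.192 to 0.428, adjusted p = 0.974 in limma, 0.08 and 0.09 within the sets). A single cKO library, cKO 3, lay above both controls, and without it the log2 fold change was 0.04. Without control 1 it was 0.03. *Sirt4*, which encodes a regulator of glutamate dehydrogenase, was at 2.84 and 3.85 FPKM in control mice, against 3.85, 4.05 and 3.52 FPKM in *Hdac1* cKO. Its log2 fold change of 0.15 (95% interval −0.192 to 0.499, adjusted p = 0.962 in limma) rested on control 1. The difference was 0.34 in set 1 and −0.02 in set 2.

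The cytoplasmic *Sirt2* was slightly lower, at 35.9 and 34.7 FPKM in control mice, against 34.0, 32.3 and 33.7 FPKM in *Hdac1* cKO. All cKO libraries lay below the controls, by 5.55% in the mean, with a log2 fold change of −0.08 (95% interval −0.294 to 0.134, adjusted p = 0.974 in limma). The values were tight, with a coefficient of variation of 3.93% over the 5 libraries, the smallest of the family, and the difference was −0.08 in set 1 and −0.07 in set 2. Because *Sirt2* is rich in oligodendrocytes, the markers of that cell type are given beside it. Of 15 such genes 12 were higher and 3 lower in *Hdac1* cKO, with a median log2 fold change of 0.12 and summed levels of 1750 to 2030 FPKM in the controls and 1750 to 2240 FPKM in *Hdac1* cKO. The myelin gene *Mog* ran from 11.3 to 15.6 FPKM over the libraries. In set 1 the summed markers were at 2030 FPKM in control 1 and 2040 FPKM in cKO 1. In set 2 they were at 1750 FPKM in control 2, 1750 FPKM in cKO 2 and 2240 FPKM in cKO 3. Of all 12740 genes tested, 6844 were higher. Of 15 neuron markers 14 were lower, with a median of −0.11 and sums of 3330 to 3700 and 3180 to 3570 FPKM. Of 15 astrocyte markers 10 were higher, with a median of 0.0084 (sums of 5560 to 5970 and 5950 to 6410 FPKM). Of these 15, 6 were higher and 0 lower without overlap of the groups, against 20.4% of all genes without overlap. In limma 1 of them passed the fold and p rule, as 0.659% of all genes did, and the largest log2 fold change was 0.779. Of 15 microglia markers 9 were higher, with a median of 0.04 (377 to 448 and 387 to 453 FPKM). Of the 10 hippocampal neuron markers 7 were lower, with a median of −0.115 (275 in both controls and 235 to 286 FPKM). Groups did not overlap in 3 oligodendrocyte, 4 neuron, 2 microglia and 2 hippocampal neuron markers. In bulk tissue, fewer cells of a type and less RNA per cell cannot be told apart. The part of cell composition in the sirtuin values was not tested.

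The closest patterns to *Sirt2* and *Sirt6* were looked up over the 5 libraries among genes of at least 5 FPKM. The distance was the largest gap in any library between both genes' deviations from their own mean, on log2(FPKM + 1). For *Sirt2* the nearest of 8847 genes was *Aldh5a1*, which encodes succinic semialdehyde dehydrogenase of the GABA shunt. It was at 25.6 and 24.3 FPKM in control mice, against 24.0, 22.7 and 23.8 FPKM in *Hdac1* cKO, a distance of 0.01. *Cdc37l1* and *Actr1b* followed with 0.01 and 0.02. For *Sirt6*, which had the widest log2 range of the family (0.432), the nearest were *Snrnp70* (0.02), the gene of the U1 snRNP protein, *Cnep1r1* (0.03) and *Srp68* (0.04). With 5 libraries many genes can match by their spread alone.

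The sirtuin genes lay on 5 chromosomes. By the outermost annotated start of each gene, 4 of 7 had another protein-coding gene starting within 1000 bp on the opposite strand. The same held for 10.8% of the annotated protein-coding genes. *Sirt3* is the tightest of these pairs. Its neighbour *Psmd13*, which encodes a subunit of the 26S proteasome lid, starts 341 bp inside the outermost *Sirt3* start, and 98 bases lie between the start of *Psmd13* and the start used by 3 of 5 *Sirt3* transcripts. The sequence between these starts is shown (mm9, chromosome 7, 148067769 to 148067866, plus strand, reading towards *Psmd13*). This pair was picked because the level of both genes was nearly the same in every library. How many other gene pairs have levels this close was not examined. Capitals mark 3 matches to the GC box CCGCCC, which is GGGCGG on the strand of *Sirt3*.

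Sirt3-Psmd13: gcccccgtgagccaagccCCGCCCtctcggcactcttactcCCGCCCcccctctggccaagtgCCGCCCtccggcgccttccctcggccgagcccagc

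*Psmd13* was at 55.5 and 55.9 FPKM in control mice, against 60.1, 66.4 and 59.1 FPKM in *Hdac1* cKO, also without overlap of the groups (log2 fold change 0.15, adjusted p = 0.955 in limma, 0.11 and 0.16 within the sets, 0.10 without cKO 2). The ratio of *Sirt3* to *Psmd13* averaged 1.04 ± 0.0218 over the 2 control libraries and 1.02 ± 0.0668 (SD) over the 3 cKO libraries, and lay between 0.945 and 1.08 in single libraries. The cKO mean was 109% of the control mean for *Sirt3* and 111% for *Psmd13*. The exonic overlap of 152 nt concerns both genes, and its part in their nearly equal values was not tested. The high level of *Sirt3* within the family stands under the same limit.

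The other neighbours did not share the level of the sirtuin beside them to that degree. *Dnajc12*, starting 739 bp from the outermost *Sirt1* start, was at 11.9 to 17.1 FPKM and overlapped between groups. That outermost start belongs to the longest coding transcript of *Sirt1* only. The other coding transcripts start at 62801780 and 62801783, far from the *Dnajc12* start at 62845191, so this pair rests on that transcript. *Nfkbib*, whose start lies 777 bp from that of *Sirt2*, encodes an inhibitor of NF-κB. It was at 3.04 and 2.06 FPKM in control mice, against 2.65, 1.43 and 1.33 FPKM in *Hdac1* cKO (log2 fold change −0.36, adjusted p = 0.955 in limma, −0.15 and −0.36 within the sets). It was −0.156 without control 1 and −0.562 without cKO 1. *Ankrd24*, 743 bp from *Sirt6*, was lower in every cKO library, as was *Sirt6* itself, at 3.85 and 3.68 FPKM in control mice, against 3.38, 3.28 and 3.66 FPKM in *Hdac1* cKO (log2 fold change −0.10, adjusted p = 0.974 in limma, −0.15 and −0.07 within the sets). The nearest starts to *Sirt4* and *Sirt5* were *Pla2g1b*, listed at 0 in all libraries, and *Nol7* at 19.8 to 26.5 FPKM, 18463 and 32863 bp away. For *Sirt7* it was *Mafg*, a symbol that a coding gene and a pseudogene share, at 13.7 to 20 FPKM.

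**Figure D3:**
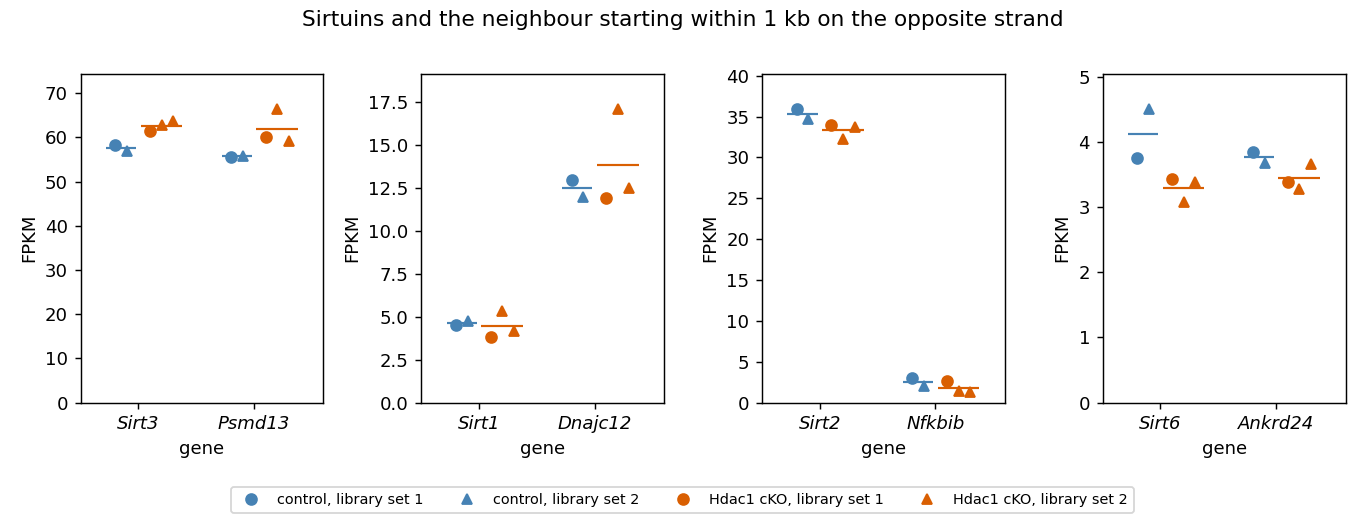
FPKM of *Sirt3*, *Sirt1*, *Sirt2* and *Sirt6*, each beside the gene that starts within 1000 bp of its outermost annotated start on the opposite strand, in the 5 libraries. Axes run from 0, with colour for genotype, symbol shape for the library set and short lines at the group means. On the deposited FPKM, *Sirt3* and *Psmd13* sit at nearly the same height in every library and are both higher in the 3 cKO libraries.

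In the 300-base promoters of RefSeq (GRCm38.p6, 250 bases before to 50 after each start), the letters GGGCGG on either strand occurred in at least one promoter of 6 of 7 sirtuin genes, and in 38.2% of all genes with a promoter listed. *Sirt1* had the most, with 7 matches, and *Sirt4* had 0. The promoter of *Sirt1* was also the richest in G and C, at 79.0% (median of all promoters 52.7%). A match of letters is a description of the sequence and no measure of binding.

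The genes around the sirtuins were examined as lists. None of the 83 tested genes of these 6 lists passed an adjusted p of 0.05 or the fold and p rule, for which the background is 0.00785% and 0.659%, and 2 were under an unadjusted p of 0.05 in limma, *Cd38* and *Taf1b*, both of them higher, which is a smaller share than the 4.36% of all genes. Groups did not overlap in 2 of 13 tested NAD synthesis genes, 5 of 11 NAD consumers and 5 of 19 nuclear partners and substrates. The same held for 2 of 8 tubulin, 3 of 21 mitochondrial and 2 of 11 RNA polymerase I genes, against 20.4% of all genes. Genes named below were mostly those of smallest p. Of 22 genes that make NAD or its precursors 13 were tested, 6 higher and 7 lower, with a median log2 fold change of −0.0096. *Nampt*, the rate-limiting enzyme of NAD salvage, was at 25.6 and 22.8 FPKM in control mice, against 23.5, 27.2 and 23.5 FPKM in *Hdac1* cKO, with overlapping groups, and was named after its values were seen. *Nmnat1*, the nuclear enzyme that forms NAD, was at 5.20 and 5.15 FPKM in control mice, against 3.06, 4.8 and 3.92 FPKM in *Hdac1* cKO, below the controls in every library (log2 fold change −0.34, adjusted p = 0.955 in limma, −0.61 and −0.20 within the sets, −0.21 without cKO 1). *Nmrk1* (0.21) and *Nudt12* (0.24) had overlapping groups, and both values rested on single libraries. *Nmrk1* was at −0.09 in set 1 and 0.39 in set 2, and at 0.07 without cKO 3 and 0.35 without cKO 1. *Nudt12* was at 0.32 and 0.30 within the sets, but at 0.04 without control 2, 0.10 without cKO 1, 0.38 without cKO 3 and 0.44 without control 1. Most of the 9 untested genes, such as *Kmo* and *Kynu* of the kynurenine route, were near 0.

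Among the other enzymes that consume NAD, 11 of 15 were tested, 8 higher and 3 lower, with a median of 0.11. *Cd38*, the membrane NAD glycohydrolase, showed the clearest difference of all tested genes in the lists around the sirtuins. It was at 7.42 and 6.53 FPKM in control mice, against 9.71, 10.9 and 9.46 FPKM in *Hdac1* cKO, 144% of the control mean with no overlap. Its log2 fold change was 0.47 (SE 0.12), which did not pass correction (adjusted p = 0.955 in limma, and 0.308 to 1 over 14 alternatives). It was 0.35 and 0.57 within the sets. *Parp3* (−0.25, within the sets −0.05 and −0.37) and *Parp9* (0.21, within the sets 0.06 and 0.30) also had groups without overlap. Both were under 2 FPKM.

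Of the nuclear partners and substrates 19 of 22 were tested, 10 higher and 9 lower, with a median of 0.0007. *Trp53* was at 6.50 and 6.78 FPKM in control mice, against 5, 6.14 and 4.21 FPKM in *Hdac1* cKO (−0.33, adjusted p = 0.955 in limma, −0.32 and −0.35 within the sets). *Foxo1*, a forkhead factor deacetylated by SIRT1, was at 5.77 and 5.96 FPKM and at 5.39, 4.53 and 4.12 FPKM (−0.28, adjusted p = 0.955 in limma, −0.08 and −0.39 within the sets). Both were below the controls in every cKO library. *Xrcc6*, which encodes the Ku70 subunit, had a log2 fold change of 0.28 with overlapping groups (0.20 and 0.25 within the sets), and of 0.14 without control 1 and 0.43 without control 2. The list member *Ccar2* could not be matched to a single symbol. Of 9 genes around tubulin acetylation 8 were tested, 3 higher and 5 lower. *Atat1*, the tubulin acetyltransferase that opposes SIRT2 and HDAC6, was at 8.20 and 9.57 FPKM in control mice, against 7.62, 6.79 and 7.05 FPKM in *Hdac1* cKO (−0.28, adjusted p = 0.955 in limma, −0.09 and −0.42 within the sets, −0.17 without control 2). *Mapt*, the gene of tau, was at −0.09 and *Tppp* at 0.11.

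Mitochondrial substrates of SIRT3, SIRT4 and SIRT5 had 21 of 22 genes tested, 11 higher and 10 lower and a median of 0.0012. *Acss1*, the mitochondrial acetyl-CoA synthetase that SIRT3 activates, was at 15.6 and 17.1 FPKM in control mice, against 17.6, 19.8 and 19.7 FPKM in *Hdac1* cKO (0.21, adjusted p = 0.955 in limma, 0.16 and 0.20 within the sets). *Sdha* of complex II was at 117 and 127 FPKM and at 109, 105 and 116 FPKM (−0.15, within the sets −0.11 and −0.20, without control 2 −0.10), below the controls in each cKO library. For SIRT7 the RNA polymerase I list held 11 genes, all tested, with 6 higher and 5 lower. *Taf1b*, a subunit of the SL1 promoter factor, was at 10.7 and 13.4 FPKM in control mice, against 15.1, 18.1 and 15 FPKM in *Hdac1* cKO (0.39, SE 0.14, adjusted p = 0.955 in limma, 0.46 and 0.28 within the sets). Without control 1 (0.245) or cKO 2 (0.312) it was no longer under an unadjusted p of 0.05. *Taf1c* was lower in every cKO library (−0.24, within the sets −0.38 and −0.09), with −0.09 without control 1 and −0.38 without control 2. *Taf1d* overlapped (0.24), at −0.14 and 0.42 within the sets, 0.10 without cKO 3 and 0.44 without cKO 1.

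**Figure D4:**
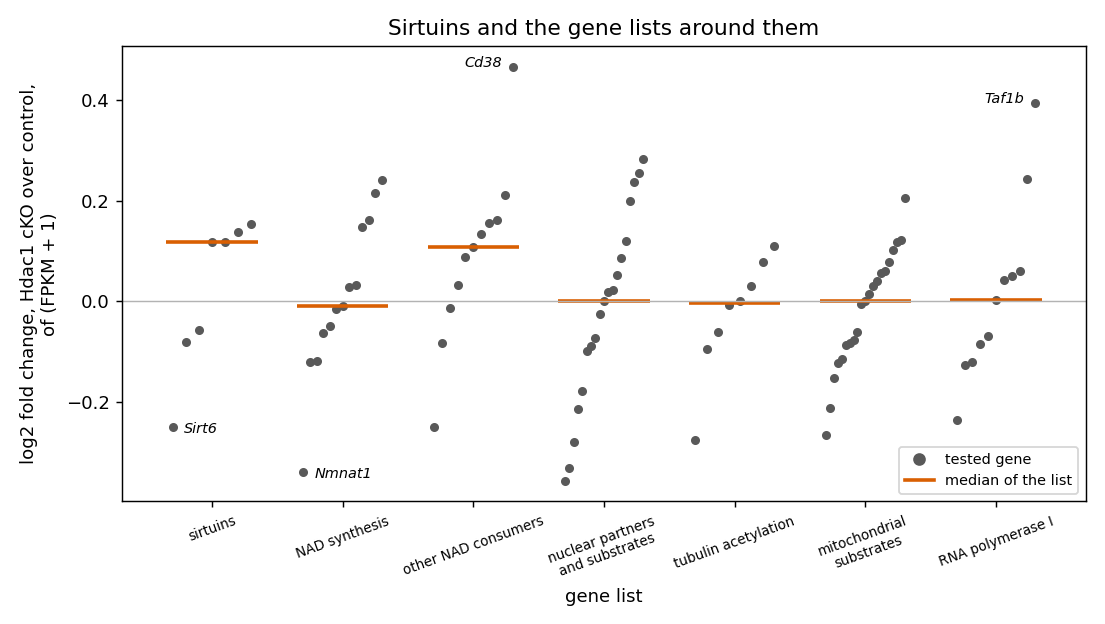
Log2 fold change of FPKM + 1, *Hdac1* cKO over control, of every tested gene among the sirtuins and the 6 lists around them, one point a gene in rank order within its list, with an orange line at the list median. List medians lie between −0.0096 (NAD synthesis) and 0.11 (other NAD consumers) beside 0.12 for the sirtuins, and *Cd38* (0.47) and *Taf1b* (0.39) are the highest points.

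Among the 7 sirtuins, leaving out single libraries turned the direction of *Sirt1* and *Sirt4*. Without cKO 1 *Sirt1* went to 0.03, and without control 1 *Sirt4* went to −0.01. *Sirt2*, *Sirt3*, *Sirt5*, *Sirt6* and *Sirt7* kept the sign of their pooled log2 fold change in each alternative run that held them. This includes every rescaling and the library set as a block. *Sirt6* was not in the run with a minimum of 5 FPKM. With a common total *Sirt3* fell to 0.0527 and *Sirt7* to 0.0799, while *Sirt2* (−0.147) and *Sirt6* (−0.333) grew in size. Differences within each set were not computed after rescaling. The libraries are labelled as separate samples of a group. Each p-value sets the difference between groups against the spread within the groups of these 5 libraries. That spread is moderated in limma with all tested genes.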

How the data were processed

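Hippocampal RNA of 2 control and 3 *Hdac1* cKO mice had been sequenced from Illumina TruSeq total RNA libraries. The authors aligned the reads to mm9 with Tophat2 and deposited FPKM from Cufflinks 2.0.0, one table per library. Groups and replicate numbers came from the sample titles. Coordinates are 1-based in mm9, from GENCODE vM1 on NCBIM37.

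The 12740 genes that averaged 1 FPKM or more were tested with limma 3.58.1 in R 4.3.3 on log2(FPKM + 1), with a variance trend, genotype as the only term and Benjamini-Hochberg adjustment over all tested genes. The fit was tested on simulated data first. Named genes were the 7 members, *Hdac1*, the nearest start to each member, the 3 smallest p in each of 6 lists and every gene past a call rule there, and the 3 nearest patterns for *Sirt2* and the member of widest range. *Nampt*, *Kmo*, *Kynu*, *Foxo6* and the markers *Mog* and *Dsp* were named outside it, after their values were seen. A gene that this rule names in the lists is not reported here. The members and lists were chosen with earlier results of these data known. Depth was estimated from the most common value of FPKM times length in low genes with 1 annotated transcript, and library sets from shared ratios of values under 0.3 FPKM (over 10% of genes in a window of 0.05 log2 units). No interval was derived from this depth. Alternatives are named in the closing section.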

Additional observations from a re-analysis of the deposited data

How the results depend on the processing

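No sirtuin gene passed an adjusted p of 0.05, an unadjusted p of 0.05 or the fold and p rule under any alternative, and the smallest adjusted p of a member was 0.538 (*Sirt6*, limma with the replicate block). The alternatives were a pseudocount of 0.1, no filter or a minimum of 5 FPKM, size factors, quantile normalization, a common total, no variance trend, both blocks and leaving out each library. With single libraries left out, *Sirt1* ranged from −0.174 to 0.028 (without cKO 1) and *Sirt4* from −0.0147 (without control 1) to 0.321. *Tppp* ranged from −0.0321 to 0.253, *Dnajc12* from −0.0342 (without cKO 2) to 0.213, *Nol7* from −0.0541 (without control 1 or cKO 2) to 0.173 and *Mafg* from −0.349 to 0.0827, where *Tppp* and *Mafg* turned without control 1. *Nol7* also turned to −0.00464 with a common total. For the next values each library was taken as its deviation from the mean of its own group. Libraries sharing a number in control and cKO titles then correlated at r = 0.402 and 0.269 across genes, and control 2 with cKO 3 at 0.151. The deviations of the 2 controls mirror each other. Control 2 with cKO 1 (−0.402), control 1 with cKO 2 (−0.269) and control 1 with cKO 3 (−0.151) thus repeat these values with the sign turned. The pairs with a positive r each fall within the same library set. The numbers were not taken as a pairing by design, since nothing in the labels gives them a meaning. In the replicate block cKO 3 has no partner, so the estimates equal those of the fit without cKO 3. With the replicate block, the lower bound for *Sirt6* was −0.622, past a change of 1.5-fold, *Hdac1* went to −1.77 (adjusted p = 0.0115), 14 genes in all passed an adjusted p and 133 the fold and p rule, against 1 and 84. With the set as a block, *Hdac1* went to −1.74 (adjusted p = 0.00389) and 5 genes passed an adjusted p. The fold and p rule gave 142 genes with a pseudocount of 0.1 and 43 with a minimum of 5 FPKM. With single libraries left out, 1 to 5 genes passed an adjusted p, 92 to 231 the fold and p rule (231 without control 2), and 0 to 1 genes of the 6 lists did, *Foxo6* (−0.73) without control 2. The causes were not tested.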
